A study of Rattus norvegicus with 21 samples.

Results

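The antiviral interferon effectors described here are 10 genes (Isg15, Rsad2, Ifit1, Ifit2, Ifit3, Oasl, Oas1a, Mx1, Mx2 and Ifih1) of the 13438 genes that the array read with a probe set of 1 gene symbol. They were chosen by name, and each was read from the probe set that named it alone and was brightest on average across the 21 arrays. All 10 were measured, Ifit2 and Mx2 with 2 such probe sets and the others with 1. INS-1 cells derive from a rat insulinoma and serve in place of primary beta cells; their RNA was hybridised to Affymetrix expression arrays, 1 array per sample and 3 arrays per group. The untransfected line, here INS1, was measured without cytokines at 0 h. The line pcDNA was stably transfected with an empty vector, and pCTSH#1 to overexpress CTSH, the lysosomal protease cathepsin H (the sample titles write pCTSH1). Both transfected lines were measured at 0, 6 and 16 h of exposure to 2 cytokines, mouse IL-1β at 150 pg/ml and rat IFNγ at 5 ng/ml, both recombinant. All cells were precultured for 3 days. pCTSH#1 is 1 clone, so that a difference from pcDNA cannot be told apart from a difference between lines that CTSH did not make. Neither 6 nor 16 h has cytokine-free arrays here, so that a change from 0 h cannot be told apart from time in culture.

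Interferons bind receptors that activate the kinases JAK1, JAK2 and TYK2, which phosphorylate STAT proteins. IFNγ acts mainly at GAS elements, while type I interferons act mainly through a complex that holds STAT2 and IRF9 at the interferon-stimulated response element, and IRF1 can bind the same kind of element. The target genes sense viral RNA, bind it, cut it, block its copying or tag proteins made during infection. In beta cells these genes are known for their part in the response to enteroviruses and in type 1 diabetes, where the islet is exposed to the same cytokines.

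Promoter sequences are shown for 4 members because the response element that interferon-induced genes share can be read in them. The RefSeq table (assembly GRCr8) held a promoter for 6 of the 10 members: Rsad2, Ifit3, Oasl, Oas1a, Mx1 and Ifih1. The core of an interferon-stimulated response element was searched as GAAANNGAAA on both strands in the 250 bases before the annotated start. It was found in Rsad2, Ifit3, Oas1a and Ifih1, and not in these windows of Oasl and Mx1. Only the first 33 of the 250 bases in Oasl lie before the outermost start that RefSeq gives the gene. In Mx1 the first 157 do so, and in Rsad2 the first 125. For Oasl and Mx1 the result thus covers these windows only and does not show that their promoters lack the element. It was present in 3.41% of all promoters in that table (1140 of 33469). Each stretch is written 5′ to 3′ on the strand of the gene, with the match in capitals. In Rsad2 and Ifit3 the match is on the other strand, so that its reverse complement is shown.
Ifit3, chr1:241527076-241527325, plus strand: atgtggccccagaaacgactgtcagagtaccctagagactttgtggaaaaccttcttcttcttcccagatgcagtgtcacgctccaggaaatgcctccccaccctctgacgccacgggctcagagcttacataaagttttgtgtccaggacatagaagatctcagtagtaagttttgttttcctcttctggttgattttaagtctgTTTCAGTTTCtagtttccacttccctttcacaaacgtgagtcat
Ifih1, chr3:67683969-67684218, minus strand: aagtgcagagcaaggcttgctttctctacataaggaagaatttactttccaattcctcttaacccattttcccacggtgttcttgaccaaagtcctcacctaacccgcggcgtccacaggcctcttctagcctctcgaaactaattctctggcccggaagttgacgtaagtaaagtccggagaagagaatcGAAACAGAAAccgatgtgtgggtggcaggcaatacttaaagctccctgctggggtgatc
Rsad2, chr6:48788246-48788370, minus strand: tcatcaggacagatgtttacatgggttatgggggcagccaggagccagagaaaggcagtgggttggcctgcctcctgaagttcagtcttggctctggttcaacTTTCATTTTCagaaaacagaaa
Oas1a, chr12:41330418-41330447, plus strand: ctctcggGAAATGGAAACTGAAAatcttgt
The matches lie 44 to 35 bases before the start in Ifit3, 59 to 50 in Ifih1 and 147 to 138 in Rsad2. Oas1a held 2 matches that overlap, GAAATGGAAA and GAAACTGAAA, between 41 and 26 bases before the start and within the span that RefSeq gives the gene, whose outermost start lies farther upstream. A GAS element, searched as TTCNNNGAA, was found in 1 of the 6 promoters, that of Oas1a, and in 2566 of all promoters (7.67%). A match describes letters in the window and shows no binding.

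Array medians lay between 4.88 and 5.08, the background of an array (its highest nonspecific control probe set) between 3.88 and 4.17, and 61.4% to 71.0% of probe sets were above it. Levels are log2 probe set intensities, so that 1 unit is a 2-fold change; they are compared between groups within a gene and not between genes. All 10 measured beta-cell markers were above background in every group. Between 0 and 16 h 10 of them fell in pcDNA and 8 in pCTSH#1, where 25.1% and 25.6% of all probe sets were called lower. The part of these markers in the 16 h results was not tested. In such bulk RNA fewer cells of a type and less RNA per cell cannot be told apart. Of 9 leukocyte markers 7 were at background in every group, among them Ptprc and Itgam, Cd68 and Laptm5 were above it, and the mean level of the list was 3.74 to 3.99 over all arrays. Cd68, a lysosomal protein of macrophages, rose by 0.83 ± 0.19 in pcDNA and by 1.24 ± 0.19 in pCTSH#1 between 0 and 16 h, and Adgre1 passed in pCTSH#1 (0.38 ± 0.14) with both groups at background; their part in the 16 h results was not tested. Ctsh, the rat gene of the transfected protein, read 4.13, 3.85 and 4.02 in pCTSH#1 and 3.87, 3.99 and 3.84 in pcDNA at 0 h, all near background, and the difference did not pass (adjusted p = 0.945). From which species the transfected sequence came is not given in the sources used here, so this probe set does not check the label. The labels number the replicates without saying that they are separate cultures, so the spread behind each p-value may be technical.

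All 10 genes rose under the cytokines in both lines, at 6 h and at 16 h (limma, adjusted p below 0.05, n = 3 per group). In pcDNA at 6 h the median change was 5.68 on the log2 scale, with a range of 2.84 to 7.44, while the median over all 31042 probe sets was -0.04 and 12.1% of them were called higher. In pCTSH#1 the median at 6 h was 5.46, with a range of 1.14 to 7.10, against 10.7% called higher in all. At 16 h the medians were 3.91 in pcDNA and 4.65 in pCTSH#1, with 21.3% and 20.8% of all probe sets called higher. With the genes that were at background at 0 h set at their lower bound (4 in pcDNA, 5 in pCTSH#1), the 6 h medians came to 5.30 in pcDNA and 5.39 in pCTSH#1, and the 16 h medians to 3.83 and 4.61. In each of these 4 comparisons the 3 treated arrays lay above the 3 untreated arrays for all 10 members, where 16.9% and 24.2% of all probe sets did so in pcDNA at 6 and 16 h, and 15.5% and 23.4% in pCTSH#1.

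**Figure D1:**
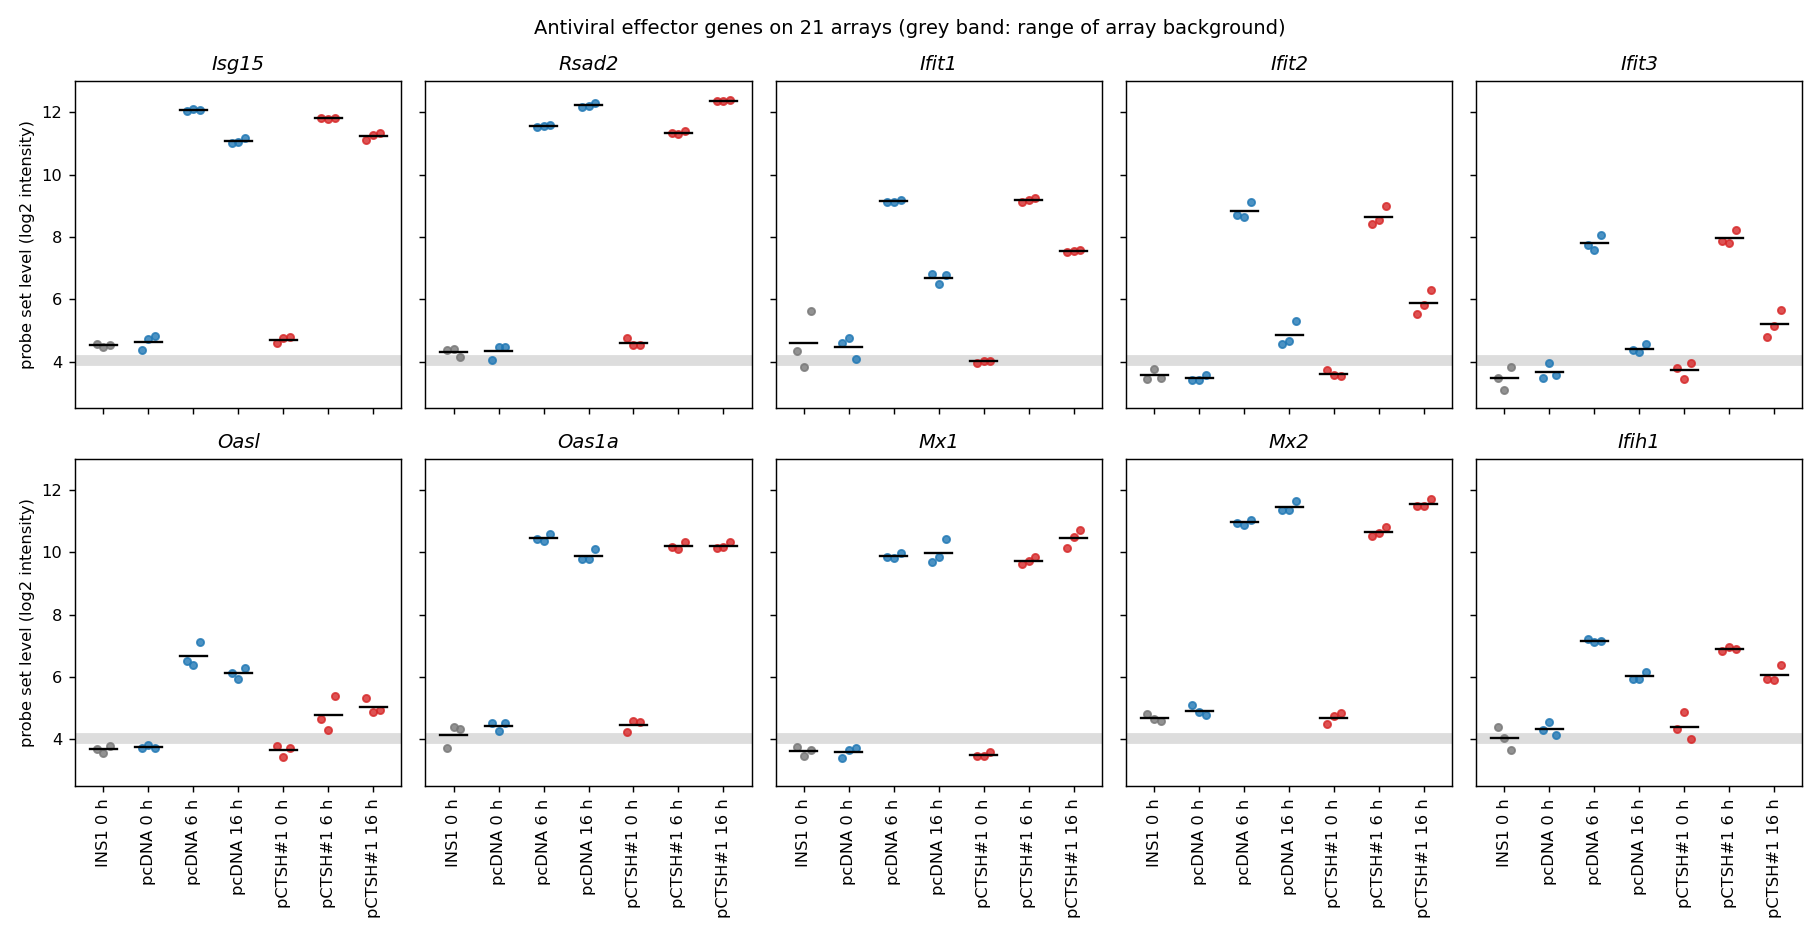
Log2 probe set level of each of the 10 genes (vertical axis) on the 3 arrays of each of the 7 groups (points, with a line at the group mean); the grey band is the range of array background, 3.88 to 4.17. Every gene sits near or in the band at 0 h and above it under cytokines, with Ifit2 and Ifit3 back near it at 16 h in pcDNA (4.84 and 4.41) and Oasl lower in pCTSH#1 than in pcDNA.

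Isg15 (Entrez 298693) encodes a ubiquitin-like protein that is joined to other proteins and is also secreted. It read 4.36, 4.73 and 4.81 in pcDNA at 0 h, 12.05, 12.11 and 12.07 at 6 h and 11.00, 11.05 and 11.16 at 16 h. In pCTSH#1 it read 4.59 to 4.78 at 0 h, 11.77 to 11.83 at 6 h and 11.12 to 11.34 at 16 h. Both lines thus rose steeply by 6 h and stood somewhat lower at 16 h, with no overlap between the times. The rise at 6 h was 174-fold in pcDNA (7.44 ± 0.10, log2 difference ± SE) and 137-fold in pCTSH#1 (7.10 ± 0.10). The 0 h means stood only 0.59 and 0.64 above background, so that these folds rest on 0 h values close to it. From 6 to 16 h Isg15 fell by 1.01 ± 0.10 in pcDNA (adjusted p = 4.88e-08) and by 0.56 ± 0.10 in pCTSH#1 (8.91e-05).

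The enzymes that join ISG15 to its targets or remove it also rose. All 5 measured genes of this list rose in both lines at both times, by a median of 1.96 at 6 h and 1.85 at 16 h in pcDNA and of 1.64 and 2.13 in pCTSH#1. Of all probe sets 10.7% to 12.1% were called higher at 6 h and 20.8% to 21.3% at 16 h. Herc6, a ligase of ISG15 in rodents, rose by 5.83 ± 0.11 at 6 h in pcDNA and Usp18, the protease that takes ISG15 off and also blocks the type I interferon receptor, by 5.72 ± 0.14. The smallest change at 6 h in pcDNA was that of Ube2l6, the conjugating enzyme (1.59 ± 0.08), followed by Uba7, the activating enzyme (1.62 ± 0.15), and Trim25, a ligase that also acts on RIG-I (1.96 ± 0.09).

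Rsad2 (Entrez 65190) encodes viperin, an enzyme that makes a nucleotide which stops the copying of viral RNA. It read 4.06, 4.48 and 4.48 at 0 h in pcDNA, 11.53, 11.54 and 11.59 at 6 h and 12.17, 12.21 and 12.31 at 16 h. In pCTSH#1 it read 4.52 to 4.75, then 11.30 to 11.39, then 12.34 to 12.38. Unlike Isg15, it was higher at 16 h than at 6 h on every array of both lines. The further rise was 0.68 ± 0.10 in pcDNA (adjusted p = 1.55e-05) and 1.02 ± 0.10 in pCTSH#1 (7.64e-08), which brought it to 238-fold and 217-fold above 0 h. These folds too rest on 0 h means close to background, 0.29 above it in pcDNA and 0.53 in pCTSH#1.

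The 3 IFIT genes encode proteins with tetratricopeptide repeats that bind viral RNA: Ifit1 binds RNA ends that lack the host's cap methylation, Ifit3 binds to Ifit1 in its complexes, and Ifit2 binds RNA rich in A and U. In the RefSeq gene order Ifit2 and Ifit3 are direct neighbours among protein-coding genes, and 1 gene lies between Ifit3 and Ifit1. Ifit2 (Entrez 294091) was at background on all 9 arrays at 0 h. It read 8.69, 8.65 and 9.11 in pcDNA at 6 h and 4.58, 4.65 and 5.29 at 16 h, a fall of 3.98 ± 0.20 (15.7-fold, adjusted p = 4.66e-12). In pCTSH#1 it read 8.42, 8.55 and 8.99 at 6 h and 5.51, 5.82 and 6.30 at 16 h, a fall of 2.78 ± 0.20 (6.86-fold, 7.03e-10). The arrays of the lines overlapped at 6 h, and at 16 h every pCTSH#1 array was above every pcDNA array. A second probe set of Ifit2 fell by 3.42 ± 0.17 in pcDNA and fell by 2.44 ± 0.17 in pCTSH#1.

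Ifit3 (Entrez 309526) was likewise at background on all arrays at 0 h. It read 7.75, 7.59 and 8.07 in pcDNA at 6 h and 4.38, 4.30 and 4.56 at 16 h. In pCTSH#1 it read 7.87, 7.80 and 8.23 at 6 h and 4.80, 5.15 and 5.66 at 16 h. Its rise at 6 h was at least 13.5-fold in pcDNA and at least 14.9-fold in pCTSH#1. At 16 h only a rise of at least 1.29-fold remained in pcDNA (adjusted p = 0.00555) and of at least 2.19-fold in pCTSH#1 (5.86e-06).

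Ifit1 (Entrez 56824) also peaked at 6 h. It read 9.11 to 9.20 in pcDNA and 9.13 to 9.26 in pCTSH#1 at 6 h, and these arrays overlapped. At 16 h it read 6.80, 6.50 and 6.78 in pcDNA and 7.52, 7.55 and 7.57 in pCTSH#1. The fall was 2.45 ± 0.28 in pcDNA (adjusted p = 3.54e-07) and 1.64 ± 0.28 in pCTSH#1 (5.64e-05). In INS1 the 3 arrays read 4.33, 3.82 and 5.64, the widest spread of any group of this gene, which enters the shared standard error.

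Oas1a (Entrez 192281) encodes an oligoadenylate synthetase, an enzyme that on binding double-stranded RNA makes the messenger that switches on the nuclease RNase L. It read 4.53, 4.26 and 4.51 at 0 h in pcDNA, 10.42, 10.37 and 10.57 at 6 h and 9.79, 9.78 and 10.10 at 16 h. In pCTSH#1 it read 4.22 to 4.59 at 0 h, 10.11 to 10.34 at 6 h and 10.14 to 10.33 at 16 h. From 6 to 16 h it fell in pcDNA by 0.56 ± 0.15 (adjusted p = 0.00405), and in pCTSH#1, where the arrays overlapped, the change was 0.01 ± 0.15 (0.984). The other 2 measured synthetase genes rose in both lines at 6 h and fell after it. Of all probe sets 12.1% in pcDNA and 10.7% in pCTSH#1 were called higher at 6 h. From 6 to 16 h 22% and 21.9% were called lower. Oas1b rose at least 6.1-fold at 6 h in pcDNA and at least 4.75-fold in pCTSH#1, and Oas1i by 2.32 ± 0.16 and 2.30 ± 0.16. From 6 to 16 h Oas1b fell by 2.14 ± 0.13 in pcDNA and by 1.05 ± 0.13 in pCTSH#1, and these changes differed (1.09 ± 0.18 by the interaction contrast, 0.132% of all probe sets called higher).

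Oasl (Entrez 304545), which encodes a synthetase-like protein that carries ubiquitin-like domains, gave the widest gap between the lines. All 9 arrays at 0 h were at background. At 6 h the pcDNA arrays read 6.52, 6.37 and 7.12 and those of pCTSH#1 4.66, 4.31 and 5.38. At 16 h they read 6.13, 5.95 and 6.30 against 5.33, 4.87 and 4.93. The groups did not overlap at either time. Its rise at 6 h was at least 6.15-fold in pcDNA (adjusted p = 1.22e-09) and at least 1.64-fold in pCTSH#1 (0.000327). The change from 6 to 16 h was -0.54 ± 0.21 in pcDNA (0.0466), a call lost in 14 of the 21 fits that left out 1 array (adjusted p of 0.0507 to 0.281), with the arrays centred on their medians (0.0819), with cyclic loess (0.0586) and with array weights (0.0679). It was 0.26 ± 0.21 in pCTSH#1 (0.382), and 0.56 ± 0.19 without replicate 3 of pCTSH#1 at 6 h, which passed (0.0241).

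Mx1 (Entrez 24575) and Mx2 (Entrez 286918) encode GTPases of the dynamin family that trap viral nucleoproteins, and 1 protein-coding gene lies between them. Mx1 was at background on all 9 arrays at 0 h and rose at least 57.2-fold in pcDNA and at least 50.6-fold in pCTSH#1 by 6 h. At 6 h it read 9.85, 9.81 and 9.99 in pcDNA and 9.62, 9.70 and 9.86 in pCTSH#1. At 16 h it read 9.69, 9.85 and 10.44 in pcDNA, overlapping 6 h, and 10.14, 10.49 and 10.71 in pCTSH#1, all above 6 h. The later rise was 0.11 ± 0.16 in pcDNA (adjusted p = 0.665) and 0.72 ± 0.16 in pCTSH#1 (0.000997).

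Mx2 stood a little above background at 0 h, at 4.78 to 5.11 in pcDNA and 4.48 to 4.86 in pCTSH#1. It read 10.89 to 11.05 in pcDNA and 10.52 to 10.81 in pCTSH#1 at 6 h, and 11.34 to 11.64 and 11.48 to 11.71 at 16 h. It rose further from 6 to 16 h by 0.49 ± 0.12 in pcDNA (adjusted p = 0.00175) and by 0.91 ± 0.12 in pCTSH#1 (2.21e-06). The second probe set of Mx2 rose by 7.47 ± 0.18 at 6 h in pcDNA but gave 0.01 ± 0.18 (0.97) and 0.40 ± 0.18 (0.0754) for the later change, so that this late rise rests on 1 of 2 probe sets. The genes Mx1 and Mx2 are close relatives, and whether the probe sets tell them apart was not tested.

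Ifih1 (Entrez 499801) encodes MDA5, the sensor of long double-stranded RNA in the cytosol that signals through Mavs, and is a candidate gene of type 1 diabetes. It read 4.30, 4.55 and 4.12 in pcDNA at 0 h, 7.23, 7.12 and 7.14 at 6 h and 5.94, 5.94 and 6.16 at 16 h. In pCTSH#1 it read 4.01 to 4.86 at 0 h, 6.82 to 6.96 at 6 h and 5.89 to 6.39 at 16 h. It rose 7.15-fold in pcDNA and 5.6-fold in pCTSH#1 by 6 h, and fell from 6 to 16 h by 1.15 ± 0.19 (adjusted p = 4.23e-05) and by 0.81 ± 0.19 (0.00155). Both folds rest on 0 h means close to background, 0.28 above it in pcDNA and 0.33 in pCTSH#1.

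Of the other sensors and adaptors 4 of 6 measured genes rose at 6 h in each line, while 10.7% to 12.1% of all probe sets were called higher. Dhx58, the RIG-I-like helicase LGP2, rose by 2.90 ± 0.13 in pcDNA and by 2.85 ± 0.13 in pCTSH#1. Eif2ak2, the kinase PKR that stops translation on double-stranded RNA, rose by 2.58 ± 0.08 and 2.47 ± 0.08. Zbp1, a sensor of Z-form nucleic acid, rose at least 3.99-fold and at least 3.77-fold. At 16 h Zbp1 had gone on to at least 5.96-fold in pcDNA and at least 12.2-fold in pCTSH#1, and was higher in pCTSH#1 by 1.01 ± 0.23. Mavs, the adaptor of MDA5, fell by 0.50 ± 0.14 at 6 h in pCTSH#1 and gave -0.35 ± 0.14 in pcDNA, which did not pass. By 16 h Mavs had fallen by 1.36 ± 0.14 in pcDNA and by 1.12 ± 0.14 in pCTSH#1.

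**Figure D2:**
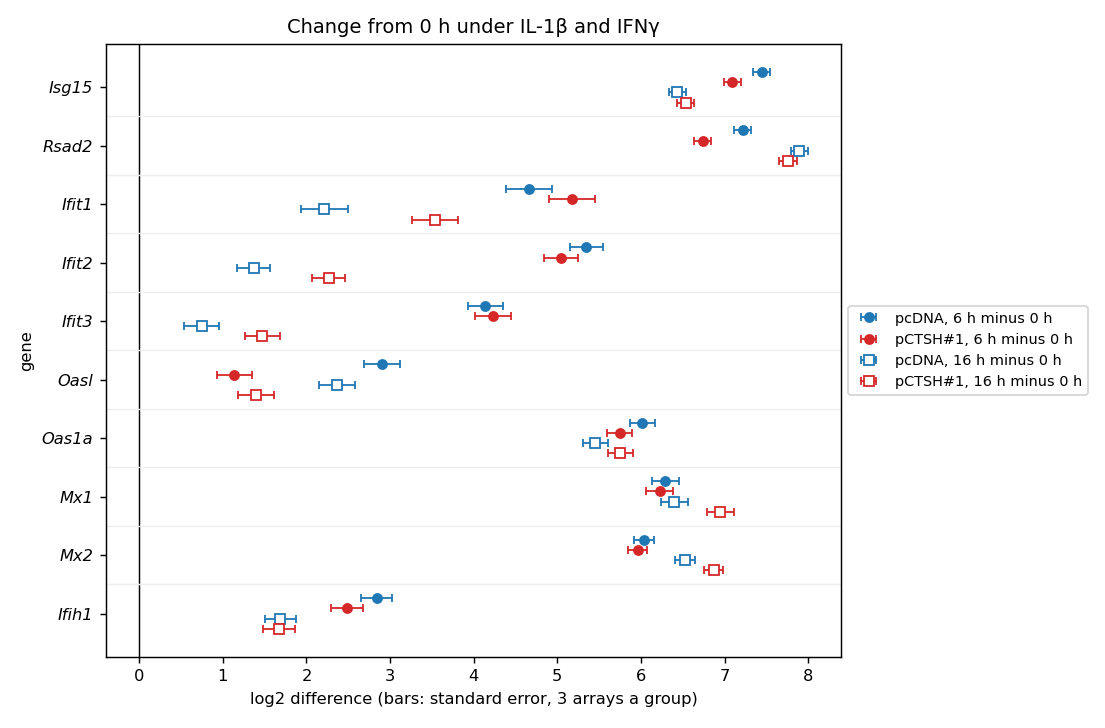
Log2 change from 0 h of each gene (horizontal axis) at 6 h (filled circles) and 16 h (open squares) in pcDNA (blue) and pCTSH#1 (red), with bars of 1 standard error from the model, 3 arrays per group. The largest 6 h changes are those of Isg15 and Rsad2 (7.44 and 7.22 in pcDNA); Ifit1, Ifit2 and Ifit3 are much lower at 16 h, and Oasl in pCTSH#1 has the smallest 6 h change (1.14).

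The members thus fell into different courses after 6 h. From 6 to 16 h in pcDNA 7 of 10 fell (22% of all probe sets were called lower), 2 rose (Rsad2 and Mx2; 20.2% called higher) and Mx1 did not pass. In pCTSH#1 5 fell (Isg15, the 3 IFIT genes and Ifih1; 21.9% called lower), 3 rose (Rsad2, Mx1 and Mx2; 19.4% called higher) and Oasl and Oas1a did not pass. The median change was -0.79 in pcDNA and -0.28 in pCTSH#1. The distance between 2 members, taken as the root mean square difference of their 7 group means after each was centred, was smallest for Mx1 and Mx2 (0.17) and was 0.42 for Ifit2 and Ifit3. It was 2.80 between Rsad2 and Oasl. The means were not scaled, so that this distance takes in the size of a rise as well as its course. The range of the 7 means was 8.04 for Rsad2 and 3.02 for Oasl.

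**Figure D3:**
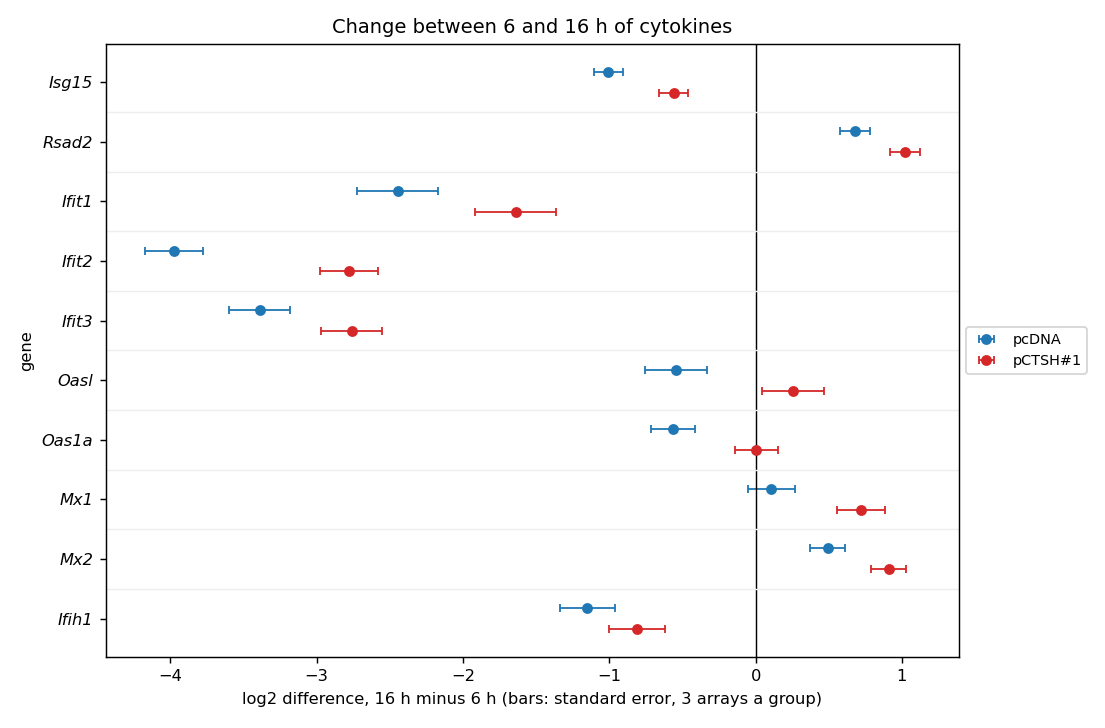
Log2 difference between 16 and 6 h of cytokines (horizontal axis) for each gene in pcDNA (blue) and pCTSH#1 (red), with bars of 1 standard error, 3 arrays per group. Ifit2 lies farthest left in both lines (-3.98 and -2.78) and Rsad2 farthest right (0.68 and 1.02), and for every gene the red point is to the right of the blue point.

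The lines were next compared at each time. At 0 h no member passed the comparison of pCTSH#1 with pcDNA in limma (0 of 10 called, 1 at an unadjusted p under 0.05, as had 10% of all probe sets; 1.15% of all were called higher and 0.728% lower). At 6 h 1 member was called, Oasl, which was 3.69-fold lower in pCTSH#1 (-1.88 ± 0.21, adjusted p = 1.82e-05; 1.1% of all probe sets called lower, 1.75% higher). The 3 pCTSH#1 arrays lay below the 3 pcDNA arrays for 6 members at 6 h (Isg15, Rsad2, Oasl, Oas1a, Mx2 and Ifih1), as they did for 11.1% of all probe sets. Of these, the 5 besides Oasl differed by -0.22 to -0.30 and did not pass. For Isg15 the difference was -0.28 ± 0.10 (adjusted p = 0.195).

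At 16 h 3 members were called. Ifit2 was 2.05-fold higher in pCTSH#1 (1.03 ± 0.20, adjusted p = 0.00458) and Ifit3 1.73-fold higher (0.79 ± 0.21, 0.0408), where 2.33% of all probe sets were called higher. In pcDNA at 16 h the means stood only 0.78 above background in Ifit2 and 0.35 in Ifit3. Both folds are thus taken near background. Oasl was 2.12-fold lower (-1.08 ± 0.21, 0.00522), where 1.48% were called lower, and its arrays did not overlap, as in 8.46% of all probe sets. Ifit1 stood 1.81-fold higher with no overlap (0.85 ± 0.28) and did not pass (0.102). All pCTSH#1 arrays were above all pcDNA arrays at 16 h for 5 members (Rsad2, the 3 IFIT genes and Oas1a), as did 8.65% of all probe sets. The second probe set of Ifit2 was also higher (0.78 ± 0.17, adjusted p = 0.0106). The call of Ifit3 was lost without any 1 of 9 arrays (adjusted p of 0.0507 to 0.182), and in a fit of only the 6 arrays at 16 h Ifit2 (0.131) and Ifit3 (0.168) did not pass while Ifit1 did (0.0217). Ifit1 also passed without replicate 3 of INS1 (0.00158) or replicate 2 of INS1 (0.0342), which lie outside this comparison and enter it through the shared spread.

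**Figure D4:**
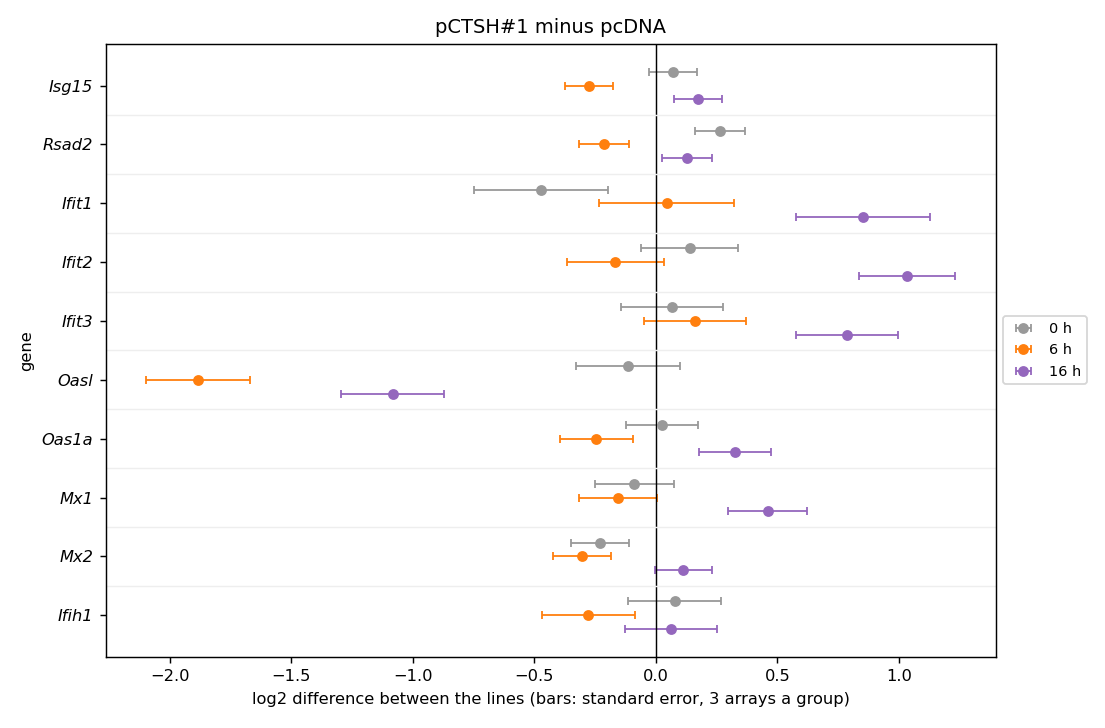
Log2 difference pCTSH#1 minus pcDNA (horizontal axis) of each gene at 0 h (grey), 6 h (orange) and 16 h (purple), with bars of 1 standard error, 3 arrays per group. Oasl lies at -1.88 at 6 h and -1.08 at 16 h, and Ifit1, Ifit2 and Ifit3 lie near 0 at 6 h and between 0.79 and 1.03 at 16 h.

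Whether the lines changed by different amounts was tested with interaction contrasts. For the 6 h response 1 of 10 members was called, Oasl (-1.77 ± 0.30, adjusted p = 0.0174), where 0.0838% of all probe sets were called lower and 0.0193% higher. Since Oasl was at background at 0 h, this value is not a size. For the 16 h response no member was called (0 of 10 in limma, 5 at an unadjusted p under 0.05; 0.213% of all probe sets were called in either direction, 0.126% higher and 0.087% lower, and 7.96% had such an unadjusted p). Ifit1 had the largest value, 1.33 ± 0.39 (adjusted p = 0.257), which passed without replicate 3 of INS1 (0.00646). For the change from 6 to 16 h no member was called either (0.267% of all probe sets in either direction), but all 10 values were positive, from 0.34 to 1.20, with a median of 0.59, where 49.6% of all probe sets were positive. Of the 10 members 8 had an unadjusted p under 0.05, against 9.74% of all probe sets. This contrast is the line difference at 16 h minus that at 6 h. The line difference was positive for 2 members at 6 h and for 9 at 16 h, against 48.7% and 48.2% of all probe sets. The members were read on the same arrays and can move together, so that these counts are not 10 separate observations. Ifit2 had the largest difference, 1.20 ± 0.28 (adjusted p = 0.0764), and passed under 6 of the other settings (0.0196 to 0.0486), among them the replicate number as a block (0.0315).

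The other genes of the pathway were read against this. The change from 6 to 16 h was more positive in pCTSH#1 than in pcDNA for 26 of 28 other interferon-induced effectors (median 0.21), for 5 of 5 genes of ISG15 conjugation (0.29), for 5 of 6 sensors and adaptors (0.35), for both other synthetases (0.73), for 8 of 10 kinases and transcription factors (0.19) and for 4 of 9 ligands and receptors (-0.02). Of the genes of these 6 lists Oas1b alone, named above, passed this contrast. The contrast is the line difference at 16 h minus that at 6 h. At 6 h the line difference was positive for 5 of 28 effectors, 1 of 5 conjugation genes and 0 of 6 sensors. It was positive for 0 of 2 synthetases, 2 of 10 kinases and factors and 4 of 9 ligands and receptors. At 16 h it was positive for 23, 5, 4, 2, 8 and 6 of these, in the same order. These counts were made after the values of the members had been seen. The genes were also read on the same arrays as the members, so that they are not separate observations.

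One array number stood apart among the members. In pcDNA the array numbered 3 was the highest of its group for 8 of 10 members at 6 h and 9 of 10 at 16 h, and in pCTSH#1 for 9 of 10 at both times. Over all probe sets that array was the highest in 34.3% to 36.5% of cases in these 4 groups. At 0 h it was the highest for 3 members in INS1, 3 in pcDNA and 4 in pCTSH#1. With the 7 arrays numbered 3 left out together, all 10 members rose in both lines at both times, and Oasl differed between pCTSH#1 and pcDNA by -1.96 ± 0.17 at 6 h (adjusted p = 0.000349). Ifit2 kept its call at 16 h, Ifit3 lost it (0.115) and Ifit1 gained one (0.0136). From 6 to 16 h Oasl lost its call in pcDNA (-0.41 ± 0.17, 0.0915) and gained one in pCTSH#1 (0.61 ± 0.17, 0.0152), and the difference of 6 h responses of Oasl did not pass (-1.80 ± 0.24, 0.0506). This pattern was found after the values were seen, and what the arrays share was not tested.

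The transfected lines were also set against the untransfected cells at 0 h. No member was called in pcDNA against INS1 (0 of 10 in limma, 1 at an unadjusted p under 0.05, as had 4.97% of all probe sets; 0.00966% called in either direction) or in pCTSH#1 against INS1 (0 of 10, 2 unadjusted against 11.8% of all; 2.57% called). The differences ran from -0.11 to 0.30 in pcDNA and from -0.59 to 0.38 in pCTSH#1, both among levels close to background. The value of -0.59 is that of Ifit1 and turns on the spread of its INS1 arrays: it was -0.97 ± 0.24 without replicate 2 of INS1, which passed (adjusted p = 0.0486), and -0.07 ± 0.16 without replicate 3, which did not pass. In every member the 4 treated groups were the 4 highest of the 7, and the 3 untreated groups followed. The order of the untreated groups is not resolved, since neighbours in it overlapped for every member except at 1 step each in Rsad2 (pCTSH#1 above pcDNA) and Ifit1 (pcDNA above pCTSH#1).

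Genes with the most similar course over the 7 group means were sought among all genes outside the members. Isg15 was closest to Gbp2, an interferon-induced GTPase (root mean square difference 0.20), and Rsad2 to Cd74, the invariant chain of MHC class II (0.43), which also went on rising to 16 h. Ifit1 was closest to Zc3h12a, an RNase that cuts inflammatory mRNA (0.28), Ifit2 to Stx11, a syntaxin (0.32), and Ifit3 to Zfp36, a protein that marks mRNA for decay (0.33), and to Socs1, a feedback inhibitor of JAK kinases (0.34). Oas1a was closest to Rtp4 (0.17), Usp18 (0.22) and Herc6 (0.27), and Mx1 to Ltb, the gene of lymphotoxin beta (0.17), and Gbp4 (0.19), which was also closest to Mx2 (0.20). Oasl was closest to Areg, a ligand of the EGF receptor (0.33), Il23a (0.37) and Fgg (0.38). At 6 h Areg read 5.93 ± 0.14 in pcDNA and 4.87 ± 0.19 in pCTSH#1 (SD, n = 3), and Il23a 6.49 ± 0.05 and 5.45 ± 0.41. The search used these same means, so that a gap like that of Oasl was part of how both genes were chosen. Ifih1 was closest to Rgs2, a regulator of G protein signalling (0.10). These distances describe 7 means each, take in the size of a change as well as its course, and carry no test.

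The genes beside Oasl in the RefSeq gene order were read to see whether they shared the gap in Oasl. Of the 5 protein-coding genes on each side 7 were measured, and none passed the comparison of the lines at 6 h in limma (differences of -0.12 to 0.12). None of the 7 rose from 0 to 6 h: the changes were -0.70 to -0.11 in pcDNA and -0.46 to -0.10 in pCTSH#1. They thus had no rise in which a gap like that of Oasl could show, and no conclusion is drawn from them. These neighbours were chosen after the values of Oasl were seen.

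Upstream of the members, 8 of 10 measured kinases and transcription factors rose at 6 h in each line, where 10.7% to 12.1% of all probe sets were called higher. The median change over all 10 was 2.28 in pcDNA and 2.10 in pCTSH#1. Irf7, which drives type I interferon genes, rose by 4.56 ± 0.14 in pcDNA and 4.30 ± 0.14 in pCTSH#1. Irf1 rose by 4.43 ± 0.08 and 4.39 ± 0.08, and Stat2 by 3.24 ± 0.12 and 3.31 ± 0.12. Irf9, the DNA-binding partner of STAT2, rose by 2.56 ± 0.10 and 2.39 ± 0.10 at 6 h and further to 3.54 ± 0.10 and 3.61 ± 0.10 at 16 h. Jak1 (-0.11 ± 0.06 and -0.10 ± 0.06) and Irf3 (-0.27 ± 0.14 and -0.19 ± 0.14) did not pass. None of the 10 genes passed the comparison of the lines at 0, 6 or 16 h (0 called in limma; 0, 1 and 2 at an unadjusted p under 0.05). Of all probe sets 10%, 12.1% and 15.4% had such an unadjusted p at these times. Called higher were 1.15%, 1.75% and 2.33% of all, and lower 0.728%, 1.1% and 1.48%. With shares this low, 0 of 10 called does not show that these genes were alike in the lines.

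Among interferon ligands and receptors 5 of 9 measured genes rose at 6 h in each line, where 10.7% to 12.1% of all probe sets were called higher. Ifnb1, the gene of interferon beta, was at background at 0 h, rose at least 1.74-fold in pcDNA and at least 1.91-fold in pCTSH#1 at 6 h, and was at background again at 16 h. Ifna5, Ifng and Ifnk were at background on at least 2 of 3 arrays in every group. Ifngr1, a chain of the receptor of IFNγ, rose by 0.32 ± 0.07 and 0.43 ± 0.07. Ifnar1, a chain of the type I receptor, gave 0.25 ± 0.11 and 0.22 ± 0.11 at 6 h, which did not pass, and fell by 0.79 ± 0.11 and 0.55 ± 0.11 by 16 h.

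Of 28 other measured effectors 25 rose at 6 h in each line, and 26 in pcDNA and 25 in pCTSH#1 at 16 h, where 10.7% to 12.1% and 20.8% to 21.3% of all probe sets were called higher. At 16 h 2 fell in each line, Ifitm2 (-0.53 ± 0.09 in pcDNA and -0.32 ± 0.09 in pCTSH#1) and Trex1 (-0.64 ± 0.10 and -0.79 ± 0.10). Of all probe sets 25.1% in pcDNA and 25.6% in pCTSH#1 were called lower at 16 h. By the mean of both lines the largest 6 h changes were those of Samd9l (at least 66.1-fold in pcDNA; 6.02 ± 0.16 in pCTSH#1), Rtp4 (5.84 ± 0.17 and 5.82 ± 0.17) and Ddx60 (5.10 ± 0.16 in pcDNA, at least 27.7-fold in pCTSH#1). Epsti1 was at background in all groups, Ifitm2, of the family that blocks viral entry, gave 0.09 ± 0.09 and 0.10 ± 0.09, and Trex1, a DNA exonuclease, gave 0.31 ± 0.10 in pcDNA, a rise, and -0.02 ± 0.10 in pCTSH#1. Between the lines 1 of the 28 was called higher in pCTSH#1 and 2 lower at 0 h, 1 and 1 at 6 h, and 3 and 1 at 16 h. Of all probe sets 1.15% and 0.728%, 1.75% and 1.1%, and 2.33% and 1.48% were so called. The search for GAAANNGAAA found it in 18 of 30 promoters of this list that the table held, against 3.41% of all promoters. It was found in 0 of 4 promoters of the ISG15 conjugation list, in 1 of 4 of the sensors, in 4 of 8 of the synthetases and RNase L, in 4 of 13 of the ligands and receptors and in 1 of 8 of the kinases and transcription factors. These lists were chosen with results of these arrays known, so their direction is not independent evidence.

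**Figure D5:**
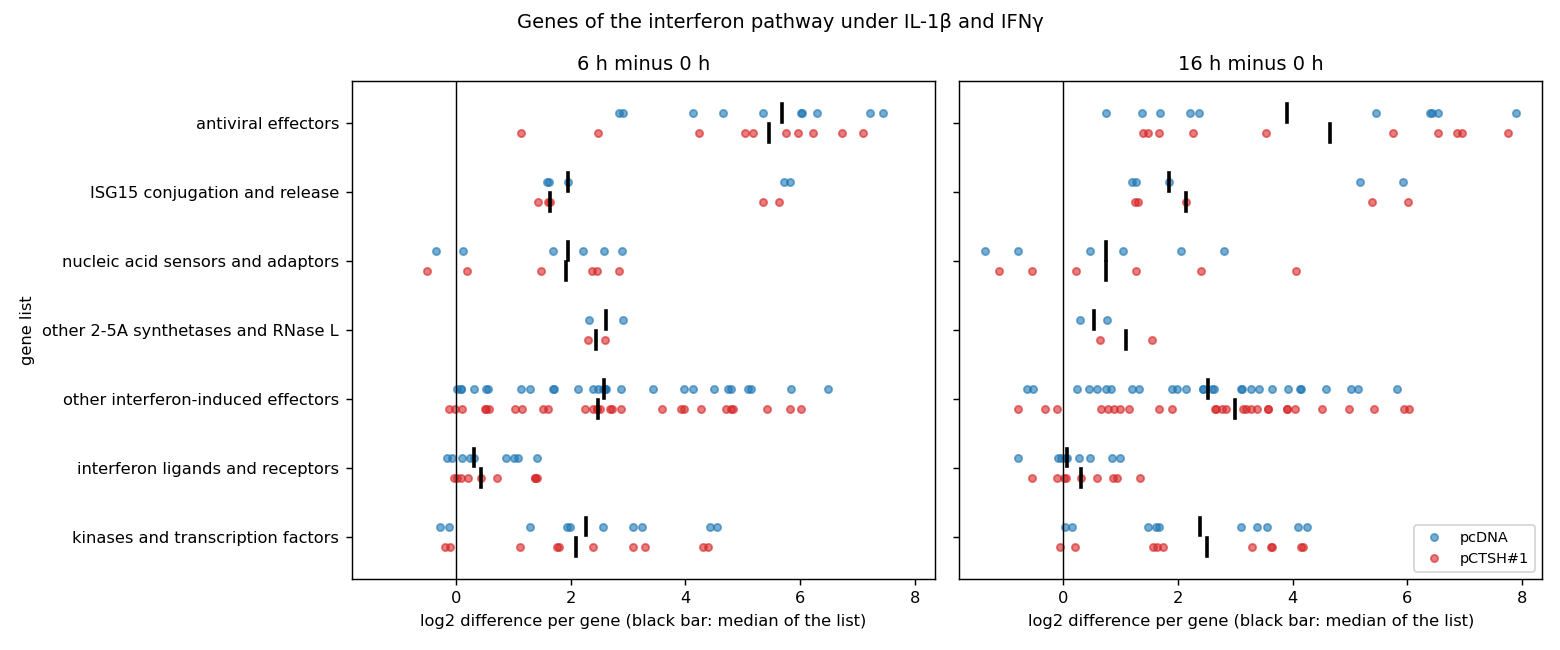
Log2 change from 0 h (horizontal axis) of every measured gene in each list (rows), at 6 h on the left and 16 h on the right, in pcDNA (blue) and pCTSH#1 (red); black bars are list medians. The antiviral effectors have medians of 5.68 and 5.46 at 6 h, and the ligands and receptors lie lowest of the lists with 0.32 and 0.43.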

How the data were processed

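RNA (100 ng per sample, integrity number above 8.5) from 7 groups of 3 samples was hybridised to an Affymetrix rat 3′ expression array. The authors deposited RMA values on the log2 scale; per the submitters' processing notes the tools were affy, RMA and limma (no version given), and RMA draws all arrays to 1 distribution. The table held 31137 probe sets, of which 31042 were tested after removing 95 controls. Gene names came from the platform annotation: 19063 tested probe sets had 1 symbol, 572 several and 11407 were not listed there. Since the deposited values were already log2, no pseudocount was needed. One model of the 7 group means was fitted over all 21 arrays with limma 3.58.1 in R 4.3.3, with 14 two-sided contrasts, Benjamini-Hochberg adjustment within each contrast over all probe sets tested and a threshold of 0.05. The fit was tested on simulated data. Figures used matplotlib 3.10.9 in Python 3.11.15.

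A fold is given as "at least" where 2 or more of 3 arrays of the dimmer group were at or below array background, which then stood in for the dim values. Same-numbered arrays were not treated as pairs in the main model. All 3 correlations of their deviations were over 0.1 in 2 of 21 pairs of groups, and single correlations ran from -0.09 to 0.24. Between pcDNA and pCTSH#1 at the same time all were positive. They were 0.11, 0.12 and 0.24 at 0 h, 0.09, 0.08 and 0.21 at 6 h and 0.04, 0.08 and 0.24 at 16 h. Pairing within a time is thus not settled. From each gene list the 3 largest and 3 smallest mean 6 h changes could be named, with Stat2, Irf7, Irf9, Ifnb1, Ifnar1, Ifngr1, Usp18, Ddx58 and Dhx58 wherever measured, and for each member the 3 genes of most similar course. Ddx58 had no single-symbol probe set and was not analysed here, and 1 further gene of this rule is not reported here. The members and lists were chosen with earlier results of these data known. Alternatives were a block for the replicate number, arrays centred on their medians, cyclic loess, a filter to the brighter 50% of probe sets, a robust variance trend in eBayes, array weights, a fit of only the arrays compared, averaging a gene's probe sets, and leaving out each array in turn. The second probe sets of Ifit2 and Mx2, and leaving out the 7 arrays numbered 3 together, were chosen after seeing the data.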

Additional observations from a re-analysis of the deposited data

Results flagged for a closer look

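Oasl was the member whose response to the cytokines differed between the lines by a test of the difference itself. Its change from 0 to 6 h was smaller in pCTSH#1 than in pcDNA by the interaction contrast (-1.77 ± 0.30 on the log2 scale, adjusted p = 0.0174 in limma, n = 3 per group). The 3 arrays of pCTSH#1 at 6 h lay below those of pcDNA, and both lines were at background at 0 h, so the contrast rests on the 6 h levels. The call was lost without replicate 1 or 3 of pcDNA at 0 h (adjusted p = 0.0548 and 0.0547), replicate 1 or 3 of pCTSH#1 at 0 h (0.0658 and 0.0514), replicate 3 of pcDNA at 6 h (0.0544) or replicate 1 of pCTSH#1 at 6 h (0.0601), and with only the arrays compared (0.0997).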

How the results depend on the processing

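The counts of members that rose at 6 and at 16 h were 10 in both lines under every alternative that kept all 10 members. With the replicate number as a block 1 member passed the difference of 6 to 16 h changes in place of 0 (Ifit2, 1.20, adjusted p = 0.0315), Mx1 passed the line comparison at 16 h (0.46, 0.0481), and the block changed no other member's call. The difference of 6 to 16 h changes also gave 1 member with the brighter 50% of probe sets, with trend and robust, with array weights, with the mean of all probe sets and without the 7 arrays numbered 3 (Ifit2), and with only the arrays compared (Ifit1). In all, this contrast called 83 probe sets in the main fit and 122 with the block. It called 193 with the brighter 50%, 212 with trend and robust and 210 with array weights. It called 108 genes with the mean of all probe sets. Without the arrays numbered 3 it called 49 probe sets, and with only the arrays compared 46. With the brighter 50% of probe sets 9 members remained, without Oasl, so the line comparison at 6 h and the difference of 6 h responses gave 0. The latter was also 0 with only the arrays compared and without the arrays numbered 3. The difference of 16 h responses gave 1 (Ifit1) with only the arrays compared (adjusted p = 0.0435) and without the arrays numbered 3 (0.0351). In all, it called 30 and 23 probe sets under these settings and 66 in the main fit. Leaving out 1 array gave 8 to 9 members for the change from 6 to 16 h in either line, 2 to 4 for the line comparison at 16 h, and 0 to 1 for pCTSH#1 against INS1 and for each of the 3 differences of responses; the other counts stayed the same. Mx1 passed the line comparison at 16 h with array weights (0.59, adjusted p = 0.0343) and without replicate 3 of pcDNA at 16 h (0.68, 0.0089). The rise of Mx2 from 6 to 16 h in pcDNA did not pass with the mean of its probe sets (0.25, 0.124). No called value of a member changed sign, while some that did not pass did, such as that of Ifit1 in pcDNA against INS1 (-0.11, and 0.61 without the arrays numbered 3). Except where the filter removed Oasl, the cause of a changed call was not tested. Median centring moved the median of all probe sets from 0.01 to 0.10 for the change from 6 to 16 h in pCTSH#1. For levels at background at 0 h, signal sets only a bound on the fold.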
